A study of Mus musculus with 27 samples.

Results

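The genes described are 39 members of the integrated stress response (ISR), whose central transcription factor is Atf4, taken by gene symbol from a deposited table of 55483 genes. They are the sensors and the subunit that start the response, Atf4 and its partner transcription factors, the genes that feed back on translation and growth, and the amino acid transporters and enzymes that Atf4 switches on. They were picked because the compound TM7nox had raised Atf4 targets in these same samples, so every comparison of TM7nox with LPS or with DMSO below is a description and carries no test. Of the 39, 37 passed the filter on low counts. Cbs, the first enzyme of transsulfuration, had 90 counts over all libraries and Vldlr, a lipoprotein receptor, had 11, so neither was tested.

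The cells were RAW264.7, an established mouse macrophage line, harvested after 6 hours with DMSO (the vehicle), with bacterial lipopolysaccharide (LPS, 1 µg/ml) plus DMSO, or with LPS (1 µg/ml) plus TM7nox (10 µM). TM7nox is a tanshinone mimic, from a series of compounds made to interfere with RNA binding by HuR, the protein encoded by Elavl1. Each treatment was measured in 4 total RNA libraries (replicates 1 to 4, RNA taken from cell pellets) and in 4 libraries of RNA recovered from lysates with an anti-HuR antibody (RNA immunoprecipitation, RIP). A control IgG recovery was made in replicate 3 alone, with 1 library per treatment, which gives 27 libraries in all. No group received TM7nox without LPS, so the compound was seen only in LPS-treated cells of 1 line.

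The ISR begins when one of several kinases (Eif2ak1, which responds to haem and mitochondrial stress, and Eif2ak4, also called GCN2, which responds to uncharged tRNA, are the members here) phosphorylates the alpha subunit of the initiation factor eIF2, encoded by Eif2s1. Translation then falls in general, while the mRNA of Atf4 is translated better because of upstream open reading frames in its leader. Atf4 protein pairs with C/EBP family proteins on composite DNA elements and turns on genes for amino acid uptake and synthesis, one-carbon metabolism and, when the stress lasts, growth arrest and cell death. In macrophages, LPS is a known inducer of several of the same genes, Atf3 and Cebpb among them. The libraries measure RNA only: neither phosphorylation of eIF2 nor translation of Atf4 was measured.

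The composite element was looked for first, because it is the sequence that Atf4 pairs are known to read. The motif TGATGNAA (N is any base) was searched on both strands in RefSeq promoters, from 250 bases before to 50 after each gene's start (build GRCm38.p6). Of the 32 members with a promoter entry, 9 held it (28.1%), against 723 of 17491 protein-coding genes (4.13%). The form TTGCATCA, which on the opposite strand is a case of the same motif, was in 6 of the 32 members (18.8%) and in 1.01% of the protein-coding genes. Since the members were chosen as known targets, and such elements were described on some of these genes, the shares are a description. Each match is printed with the 10 bases on each side, 5′ to 3′ on the gene's own strand, with the match in capitals.
Atf3: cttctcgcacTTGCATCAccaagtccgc
Jdp2: tagccggggcTGATGCAAcccgtcccgc
Nupr1: aagggccagaTTGCATCAgacagggctt
Trib3: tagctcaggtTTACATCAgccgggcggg
Slc1a4: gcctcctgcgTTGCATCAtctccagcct
Asns: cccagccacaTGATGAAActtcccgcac
Pck2: gccttcaaagTTACATCAgtatcttaca
Chac1: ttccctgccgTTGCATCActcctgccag
Vldlr: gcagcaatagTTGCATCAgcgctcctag
These windows lie at chr1:191183426-191183453 (Atf3, minus strand), chr12:85599373-85599400 (Jdp2, plus), chr7:126625563-126625590 (Nupr1, minus), chr2:152344029-152344056 (Trib3, minus), chr11:20332700-20332727 (Slc1a4, minus), chr6:7693215-7693242 (Asns, minus), chr14:55540153-55540180 (Pck2, plus), chr2:119351039-119351066 (Chac1, plus) and chr19:27216810-27216837 (Vldlr, plus). Counted from the gene's start, the first base of the match was at -110 in Atf3 and Nupr1, -193 in Chac1, -200 in Vldlr, -103 in Pck2, -33 in Jdp2, -23 in Asns, -4 in Slc1a4 and 15 in Trib3. A match says only that these letters are in the window. Vldlr, which holds the TTGCATCA form, was close to absent from every library, with no count in the 12 RNA libraries.

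Library totals ran from 2728534 counts (RNA, DMSO replicate 1) to 41449233 counts (RIP, LPS+TM7nox replicate 3), and the other RNA libraries held from 16258731 to 28285856 counts. All 10 macrophage markers were at a mean of 2.86 CPM (read counts scaled to a common library size) or more in each RNA group, and all markers of T, B, fibroblast, epithelial and endothelial cells were under 1 CPM. Replicates 1 and 2 stood apart from replicates 3 and 4 in many members, in RNA and in RIP alike. Nothing in the labels says that replicates came from separate cultures, so p-values measure the spread between these libraries, which may be technical. In bulk RNA, fewer expressing cells and less RNA per cell cannot be told apart. Library values below are CPM on 1 scale (TMM) for all 27 libraries, listed in the order of replicates 1 to 4. Changes are log2 values from edgeR's quasi-likelihood test with a Benjamini-Hochberg adjusted p over all genes tested (FDR). The standard error (SE) was derived as the absolute log2 change divided by the square root of the test's F statistic. It is approximate, above all where counts are low. A gene was called at an FDR under 0.05. 

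Levels of different members can be compared only per length, as CPM per kilobase of annotated exon (mean ± SD, n = 4). The length is the union of all annotated exons of a gene, for example 2374 bases for Atf4 and 9231 for Eif4ebp1. It can exceed the length of the mRNA present, so the order depends on the annotation as well as on the level. In DMSO the highest were Shmt2 (51.7 ± 11.5), the mitochondrial serine hydroxymethyltransferase, and Atf4 (48.2 ± 12.4), and these did not differ beyond their spread. Phgdh (31.6 ± 13.5), Slc1a5 (28.1 ± 6.57), Slc7a5 (25.7 ± 5.07) and Slc38a2 (24.6 ± 1.24) followed, close together. In LPS the order began with Atf4 (134 ± 44.3), Atf3 (102 ± 53.5), Cebpb (72.3 ± 19.9) and Nupr1 (60.5 ± 17.2), all 4 transcription regulators. Neighbours among these 4 did not differ beyond their spread. In LPS+TM7nox it began with Atf4 (291 ± 65.2), Atf3 (285 ± 135) and the transporter chain Slc3a2 (169 ± 16.5), of which the first pair did not differ beyond their spread.

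LPS against DMSO in total RNA is the comparison that the choice of members did not use, although its LPS libraries also serve in the comparison with TM7nox. LPS raised 15 of the 37 members and lowered 4, where 20.2% of the 12369 genes tested rose and 21.7% fell. The members' median change was 0.33, against -0.04 over all genes. By role, 6 of 8 transcription factors and 5 of 6 feedback and growth-brake genes rose, against 1 of 6 transporters and 2 of 10 enzymes. Of the members that rose, 13 had every LPS library above every DMSO library (19.8% of all genes did), and so did 2 in the downward direction (18.9%). With the replicate number as a block, 20 members rose and 6 fell, and the calls over all genes went from 5190 to 6481. Replicates 1 and 2 on their own gave 10 calls (1668 over all genes), and replicates 3 and 4 gave 29 (7349). The former lost Atf4, Trib3, Ddit4, Chac1, Mthfd2, Shmt2, Slc38a2, Impact and Eif2ak4, and the latter added Asns, Atf5, Cebpg, Eif2ak1, Eif2s1, Eif4ebp1, Psph, Slc1a4 and Slc7a1 upward and Pck2 downward. With no filter on low counts Impact was lost and Asns and Atf5 were added, RLE size factors added Eif2s1, and DESeq2 added Asns, Eif2s1 and Slc7a1.

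For LPS+TM7nox against LPS, which shares the 4 LPS libraries, 23 members were above the call threshold upward (7.37% of all genes) and 1 downward (6.4%), with a median difference of 1.18 against 0.00. Against DMSO the counts were 28 upward (23.7%) and 2 downward (23.6%). With the replicate block there were 29 upward and 4 downward against LPS, the latter Ppp1r15b, Jdp2, Eif2s1 and Slc1a5 (3091 over all genes, from 1704), and 34 and 2 against DMSO (7173, from 5850). Nothing is read from these counts, since such differences chose the members. What can be described is which members carry them and how the libraries lie.

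**Figure D1:**
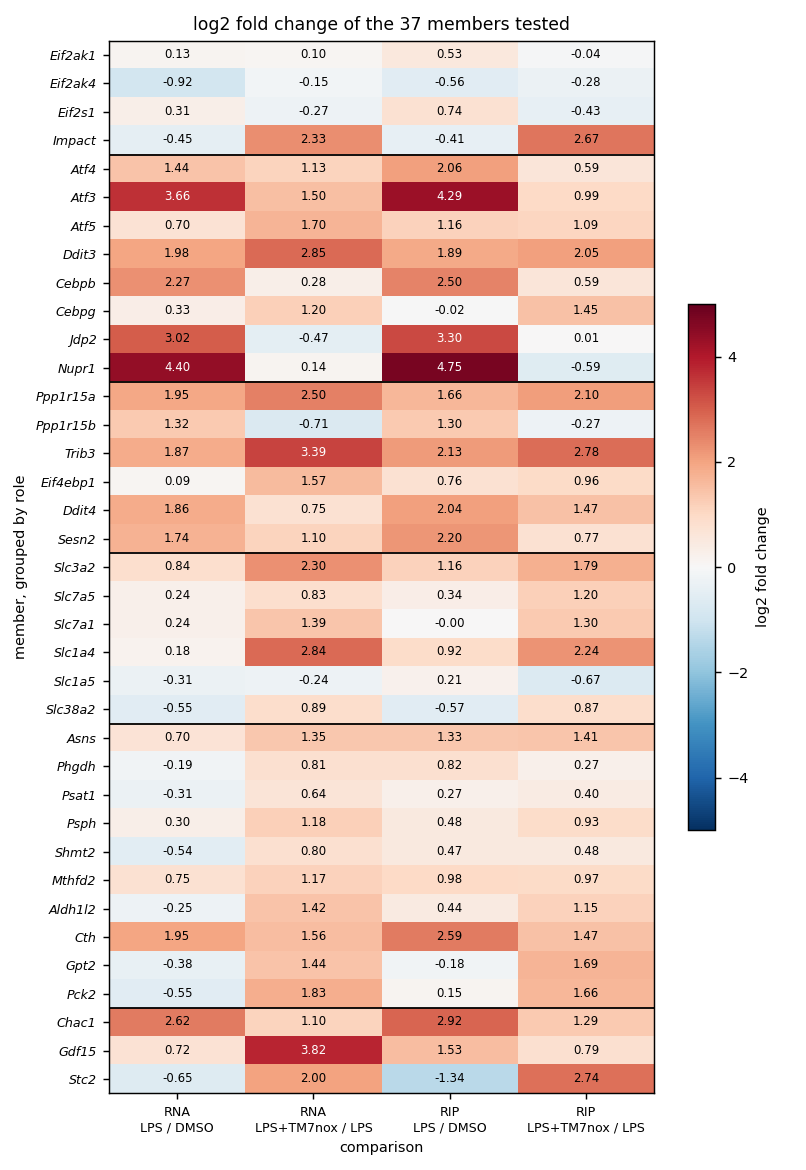
Log2 differences of the 37 measured members, grouped by role, in total RNA and in anti-HuR RIP for LPS against DMSO and for LPS+TM7nox against LPS. Nupr1, Atf3 and Jdp2 are the strongest in the LPS columns, and Gdf15 (3.82) and Trib3 (3.39) in the RNA column for LPS+TM7nox against LPS.

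Of the sensing genes, none rose with LPS. Eif2ak4, the kinase that reads amino acid shortage, fell, with a log2 change of -0.92 (SE 0.174, FDR 0.000702), although its lowest DMSO library lay inside the LPS range. Impact, which binds Gcn1 and restrains Eif2ak4, had 18.4, 17.6, 20.0 and 19.3 CPM in DMSO, 11.9, 14.6, 15.0 and 14.8 in LPS and 80.5, 77.7, 65.2 and 59.3 in LPS+TM7nox. Its LPS libraries all lay under its DMSO libraries, with a change of -0.45 (SE 0.128, FDR 0.0115) that was not called with no filter on low counts (-0.39, FDR 0.121) or in replicates 1 and 2 alone (FDR 0.265), and its LPS+TM7nox libraries all lay above both, 2.33 (SE 0.131) from LPS on the log2 scale. Eif2ak1 (46.2, 51.8 and 55.3 CPM in DMSO, LPS and LPS+TM7nox) and Eif2s1 (138, 174 and 144) differed little between the groups. Eif2s1 was not called in LPS (FDR 0.0623 by edgeR) but was with the replicate block (FDR 0.00454) and without LPS replicate 1 (FDR 0.0297). Impact was thus the one sensing member whose RNA stood well above LPS in the LPS+TM7nox libraries.

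Atf4 itself (ENSMUSG00000042406, chromosome 15, 80139372 to 80141745, GRCm39) had 77.6, 148, 109 and 123 CPM in DMSO, 179, 297, 382 and 414 in LPS and 502, 630.3, 799 and 835 in LPS+TM7nox. The 3 groups did not overlap, with DMSO lowest and LPS+TM7nox highest. LPS raised it 2.71-fold, a log2 change of 1.44 (SE 0.249, FDR 0.000327); in replicates 1 and 2 alone the change was 1.09 and not called (FDR 0.0661). The log2 difference of LPS+TM7nox from LPS was 1.13 (SE 0.246). Ddit3 (ENSMUSG00000025408, chromosome 10, 127124268 to 127132163), the CHOP factor linked to cell death under lasting stress, had 5.94, 9.39, 5.98 and 10.7 CPM in DMSO, 19.3, 24.5, 35.8 and 52.0 in LPS and 263, 210.5, 199 and 272 in LPS+TM7nox. Its groups did not overlap either: LPS raised it by 1.98 (SE 0.277, FDR 5.7e-05), and LPS+TM7nox stood 2.85 (SE 0.275) above LPS, the greatest such difference among the transcription factors. A second row with the symbol Ddit3 had no count in any library, and reads lying in both gene models may have been counted in neither.

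Atf3, a repressor induced by many stresses and by LPS, had 11.0, 22.1, 19.7 and 22.4 CPM in DMSO, 104, 171, 367 and 349 in LPS and 319, 523, 947 and 996 in LPS+TM7nox. LPS raised it 12.7-fold, 3.66 (SE 0.441, FDR 1.44e-05). The LPS and LPS+TM7nox ranges overlapped because replicates 3 and 4 of LPS read higher than replicate 1 of LPS+TM7nox, yet within each replicate number LPS+TM7nox was the higher. Atf5, a close relative of Atf4 with a similar leader, had 3.39, 3.81, 6.79 and 7.20 CPM in DMSO, 3.98, 4.80, 15.7 and 11.9 in LPS and 17.9, 16.8, 39.8 and 43.8 in LPS+TM7nox. In every treatment its replicates 3 and 4 read above replicates 1 and 2, and its LPS change was 0.70 (SE 0.448, FDR 0.234), not called there but called with the replicate block (0.67, FDR 0.00476), with no filter on low counts (FDR 0.00155) and in replicates 3 and 4 alone (0.99, FDR 0.000172). Cebpg, a C/EBP partner of Atf4, had 22.9, 29.8, 22.7 and 29.9 CPM in DMSO, 21.98, 30.9, 36.9 and 45.9 in LPS and 56.8, 74.7, 78.9 and 100.1 in LPS+TM7nox. Its LPS libraries overlapped DMSO, with an FDR of 0.228 by edgeR and of 0.0458 with the block, and its LPS+TM7nox libraries lay above both groups.

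Cebpb, Jdp2 and Nupr1 showed another order, with LPS and LPS+TM7nox overlapping and both above DMSO. Cebpb, the C/EBP factor of macrophage activation, had 38.6, 28.4, 8.81 and 15.2 CPM in DMSO, 112, 145, 71.8 and 107 in LPS and 150.4, 184, 50.9 and 141 in LPS+TM7nox. LPS raised it by 2.27 (SE 0.448, FDR 0.00096), and LPS+TM7nox differed from LPS by 0.28 (SE 0.419). Jdp2, a repressor of the same bZIP family, had 32.01, 25.2, 13.6 and 16.9 CPM in DMSO, 268, 232, 97.3 and 113 in LPS and 144, 171, 84.0 and 112 in LPS+TM7nox. It rose by 3.02 (SE 0.381, FDR 2.23e-05) with LPS and was the one transcription factor with a negative difference of LPS+TM7nox from LPS, -0.47 (SE 0.348). Nupr1, a small chromatin protein induced by stress, had 5.51, 11.2, 11.6 and 13.2 CPM in DMSO, 153, 202, 281 and 291 in LPS and 232, 229, 264 and 291 in LPS+TM7nox. Its rise with LPS, 21.1-fold (4.40 (SE 0.247, FDR 9.92e-09)), was the largest of the 37 members measured, and LPS+TM7nox differed from LPS by 0.14 (SE 0.212). In all 3 genes the LPS+TM7nox libraries overlapped the LPS range, but within each of the 4 replicate numbers Jdp2 read lower in LPS+TM7nox than in LPS, while Cebpb and Nupr1 were higher in some numbers and lower in others.

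**Figure D2:**
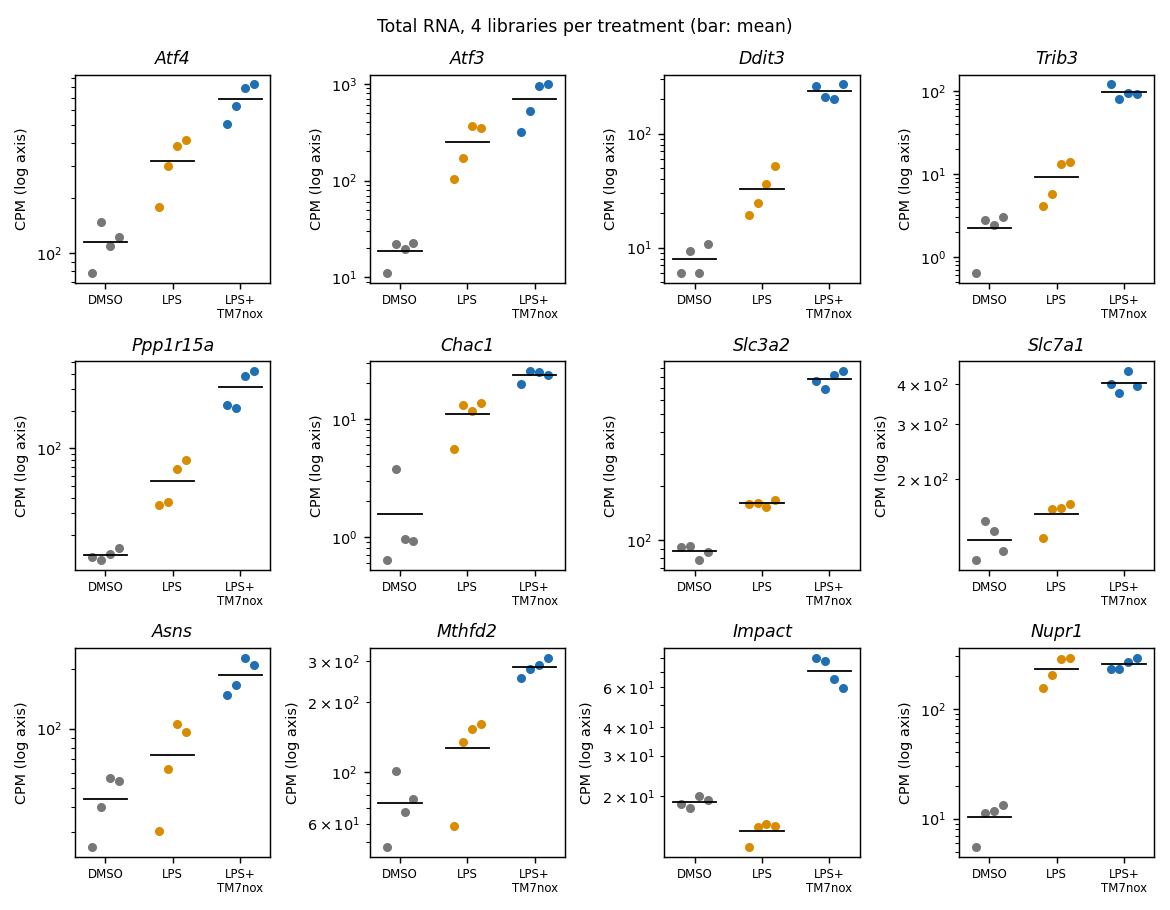
Total RNA level (CPM, log axis) of 12 members by treatment, with 1 point per library in the order of replicates 1 to 4 and a bar at the mean. Atf4 and Trib3 step up from DMSO to LPS and again to LPS+TM7nox, while Nupr1 steps up from DMSO to LPS and then levels off.

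Of the 6 feedback genes, 5 rose with LPS. Ppp1r15a (GADD34), the inducible subunit that directs a phosphatase to eIF2, had 13.4, 12.5, 13.9 and 15.7 CPM in DMSO, 34.8, 36.7, 68.1 and 79.8 in LPS and 224, 211, 385 and 421 in LPS+TM7nox. Its groups did not overlap: LPS raised it by 1.95 (SE 0.290, FDR 9.35e-05) and LPS+TM7nox stood 2.50 (SE 0.287) above LPS. Ppp1r15b, the constitutive counterpart of that subunit, had 71.4, 101, 104 and 87.1 CPM in DMSO, 192, 268, 230.4 and 240.4 in LPS and 110.1, 166, 147 and 145 in LPS+TM7nox. LPS raised it by 1.32 (SE 0.150, FDR 7.75e-06), and its LPS+TM7nox libraries lay between the other groups, -0.71 (SE 0.147) from LPS with no overlap. The inducible and the constitutive subunit thus shared a direction after LPS and had opposite signs between LPS+TM7nox and LPS.

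Trib3 (ENSMUSG00000032715, chromosome 2, 152179337 to 152191958), a pseudokinase that restrains Atf4 and Akt, had 0.636, 2.83, 2.41 and 3.02 CPM in DMSO, 4.15, 5.71, 13.2 and 14.0 in LPS and 121, 79.7, 95.5 and 92.2 in LPS+TM7nox. LPS raised it by 1.87 (SE 0.370, FDR 0.000981), with replicates 3 and 4 above replicates 1 and 2, and the LPS+TM7nox libraries stood 3.39 (SE 0.357) above LPS. In replicates 1 and 2 alone the LPS change was 1.20 (FDR 0.106). Sesn2, an inhibitor of mTORC1 signalling that senses leucine, had 8.27, 7.26, 9.13 and 8.51 CPM in DMSO, 12.7, 23.5, 34.9 and 42.0 in LPS and 46.4, 56.0, 71.0 and 67.6 in LPS+TM7nox. Its 3 groups did not overlap, and the LPS change was 1.74 (SE 0.285, FDR 0.00022). Eif4ebp1, a repressor of cap-dependent translation, had 56.6, 63.9, 60.6 and 64.9 CPM in DMSO, 51.1, 59.2, 80.4 and 76.7 in LPS and 213, 174, 202 and 201 in LPS+TM7nox. LPS left it overlapping DMSO (0.09 (SE 0.134, FDR 0.647)), whereas LPS+TM7nox stood 1.57 (SE 0.136) above LPS. Ddit4 (REDD1), another brake on mTORC1, was low throughout, with 0.212, 0.463, 1.22 and 1.15 CPM in DMSO, 0.898, 2.51, 4.40 and 4.80 in LPS and 2.38, 4.04, 7.72 and 7.05 in LPS+TM7nox. It was called higher in LPS (1.86 (SE 0.550, FDR 0.0141)) although the LPS replicate 1 library lay inside the DMSO range.

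Among the transporters, LPS raised Slc3a2 and lowered Slc38a2, and the other 4 were not called. Slc3a2 (ENSMUSG00000010095, chromosome 19, 8684245 to 8701108), the heavy chain shared by several amino acid exchangers, had 91.4, 93.3, 77.5 and 86.3 CPM in DMSO, 159.7, 160.0, 153 and 168 in LPS and 761, 694, 827 and 869.8 in LPS+TM7nox. The libraries of each group were close together, the groups did not overlap, and the LPS change was 0.84 (SE 0.112, FDR 3.35e-05) on the log2 scale. LPS+TM7nox stood 2.30 (SE 0.116) above LPS. Slc7a1, the cationic amino acid transporter for arginine and lysine, had 110.5, 147, 137 and 118 CPM in DMSO, 129.7, 161, 162 and 166 in LPS and 400.4, 376, 442 and 394 in LPS+TM7nox. It was not called in LPS (FDR 0.114 by edgeR, 0.0421 with the replicate block, 0.049 without LPS replicate 1), and all 4 LPS+TM7nox libraries lay above every library of the other groups. Slc1a4, a neutral amino acid exchanger, had 2.76, 3.96, 1.29 and 1.71 CPM in DMSO, 0.727, 2.32, 3.78 and 4.15 in LPS and 25.2, 17.4, 19.9 and 16.4 in LPS+TM7nox. Its DMSO and LPS libraries overlapped (0.18 (SE 0.438, FDR 0.78)): LPS read lower than DMSO in replicates 1 and 2 and higher in replicates 3 and 4, which on their own gave 1.41 (FDR 0.00018). LPS+TM7nox stood 2.84 (SE 0.427) above LPS. 

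Slc38a2 (SNAT2), a glutamine and alanine carrier, averaged 239 ± 12.1 (SD, n = 4) CPM in DMSO, 166 ± 14.9 in LPS and 308 ± 16.6 in LPS+TM7nox. It fell with LPS, a log2 change of -0.55 (SE 0.0989, FDR 0.000443) without overlap, and was 0.89 (SE 0.0992) from LPS in LPS+TM7nox. Slc7a5 (LAT1), the light chain that pairs with Slc3a2, averaged 98.8, 119 and 212 CPM and was not called in LPS (FDR 0.197 by edgeR). Slc1a5 (ASCT2), a glutamine carrier, averaged 152, 126 and 106 CPM. Its groups overlapped, and it was the one transporter with a negative difference of LPS+TM7nox from LPS, -0.24 (SE 0.197). It was called lower in LPS with the replicate block (-0.29, FDR 0.00655).

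Of the 10 amino acid and one-carbon enzymes measured, LPS raised 2, Cth and Mthfd2, and lowered 1, Shmt2. Asns, which makes asparagine, had 25.2, 40.0, 56.2 and 54.6 CPM in DMSO, 30.5, 62.3, 105 and 96.6 in LPS and 148, 165, 228 and 208 in LPS+TM7nox. Within each treatment replicate 1 was lowest and replicates 3 and 4 were highest. LPS gave 0.70 (SE 0.317, FDR 0.0937), which was called without the LPS replicate 1 library (FDR 0.00719) and with the replicate block (FDR 0.00335). Psph, the last enzyme of serine synthesis, had 10.4, 15.2, 20.6 and 20.5 CPM in DMSO, 7.23, 13.7, 33.6 and 31.1 in LPS and 41.8, 38.1, 57.7 and 55.8 in LPS+TM7nox. Pck2, the mitochondrial phosphoenolpyruvate carboxykinase, had 6.57, 10.9, 21.97 and 21.8 CPM in DMSO, 3.89, 8.83, 16.9 and 14.3 in LPS and 38.8, 31.5, 45.5 and 39.5 in LPS+TM7nox. In both genes the DMSO and LPS libraries overlapped widely, and replicates 1 and 2 sat below replicates 3 and 4. The LPS change of Psph was 0.30 (SE 0.371, FDR 0.557), and 0.66 (FDR 0.000143) in replicates 3 and 4 alone, while LPS read lower than DMSO in replicates 1 and 2. Within each of the 4 replicate numbers Pck2 read lower in LPS than in DMSO, with an FDR of 0.286 by edgeR and of 0.0872 with the block, and of 0.00531 in replicates 3 and 4 alone. Aldh1l2, a mitochondrial folate dehydrogenase, had 1.06, 4.99, 32.3 and 34.3 CPM in DMSO, 1.11, 3.19, 31.2 and 29.3 in LPS and 29.2, 21.9, 57.4 and 64.6 in LPS+TM7nox. Here the same treatment differed between replicates more than the treatments did, and the SE of its LPS change was accordingly large, -0.25 (SE 0.888, FDR 0.85). All 3 were higher on average in LPS+TM7nox than in LPS (1.18 (SE 0.369), 1.83 (SE 0.392) and 1.42 (SE 0.896) for Psph, Pck2 and Aldh1l2), with overlapping libraries for Aldh1l2. Within each of the 4 replicate numbers, however, Aldh1l2 read higher in LPS+TM7nox than in LPS.

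Cth, which releases cysteine in transsulfuration, had 0.848, 1.88, 3.76 and 2.99 CPM in DMSO, 5.47, 8.89, 14.7 and 11.9 in LPS and 20.3, 24.4, 40.1 and 35.9 in LPS+TM7nox. LPS raised it 3.88-fold (1.95 (SE 0.356, FDR 0.000503)), the one enzyme whose groups did not overlap in any of the 3 treatments. Mthfd2, the mitochondrial folate enzyme of dividing cells, had 47.5, 101, 67.4 and 76.8 CPM in DMSO, 58.4, 134, 153 and 161 in LPS and 254, 277, 288 and 311 in LPS+TM7nox. It was called in LPS (0.75 (SE 0.259, FDR 0.0303)), but its LPS replicate 1 library lay inside the DMSO range, and the call was lost without DMSO replicate 1, 3 or 4 or LPS replicate 2, 3 or 4 (FDR 0.0556 to 0.0953). Gpt2, the mitochondrial alanine transaminase, had 10.6, 10.5, 14.9 and 15.8 CPM in DMSO, 6.07, 9.22, 12.5 and 13.2 in LPS and 28.2, 22.9, 30.0 and 29.6 in LPS+TM7nox. Its DMSO and LPS libraries overlapped, but within each of the 4 replicate numbers LPS read lower than DMSO, with an FDR of 0.179 by edgeR and of 0.0572 with the block. All its LPS+TM7nox libraries lay above both, 1.44 (SE 0.217) from LPS.

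Shmt2 averaged 212 ± 47.4 (SD, n = 4) CPM in DMSO, 149.5 ± 34.1 in LPS and 259.6 ± 38.2 in LPS+TM7nox. It fell with LPS, with -0.54 (SE 0.181, FDR 0.027) on the log2 scale, a call that was lost without LPS replicate 1 or 2 or DMSO replicate 3 or 4 (FDR 0.0766 to 0.0912). Phgdh, the first enzyme of serine synthesis, averaged 89.3, 80.6 and 141 CPM, and Psat1, the second, averaged 127, 105 and 164. Neither was called in LPS (FDR 0.739 and 0.445 by edgeR), but Psat1 was lower with the replicate block (-0.33, FDR 0.0112). All 10 measured enzymes had a positive difference of LPS+TM7nox from LPS, between 0.64 for Psat1 and 1.83 for Pck2.

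Of the other targets, Chac1, which degrades glutathione, had 0.636, 3.76, 0.965 and 0.920 CPM in DMSO, 5.56, 13.1, 11.6 and 13.8 in LPS and 19.9, 25.5, 24.9 and 23.3 in LPS+TM7nox. LPS raised it by 2.62 (SE 0.424, FDR 0.000197). The DMSO replicate 2 library stood apart from the other 3, and without it the change was 3.57. Gdf15 (ENSMUSG00000038508, chromosome 8, 71082038 to 71091537), a secreted stress cytokine, had 0, 0.283, 0.289 and 0.197 CPM in DMSO, 0.214, 0.483, 0.412 and 0.468 in LPS and 4.81, 2.35, 6.93 and 8.62 in LPS+TM7nox. It was scarcely detected in DMSO and LPS, with 0 counts in DMSO replicate 1, and its LPS+TM7nox libraries all lay above the rest, 3.82 (SE 0.450) from LPS, the largest such difference of the members measured. Stc2, a secreted glycoprotein, had 0, 0.643, 2.12 and 2.20 CPM in DMSO, 0.470, 0.226, 1.58 and 1.31 in LPS and 4.61, 0.697, 4.59 and 4.50 in LPS+TM7nox. The LPS+TM7nox replicate 2 library lay in the LPS range while its other 3 lay above it, and within each of the 4 replicate numbers LPS+TM7nox read higher than LPS.

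The pathway holds many genes besides these, and 54 were listed from general knowledge: 16 of the sensing machinery and 38 further reported targets, of which 51 were tested in RNA. LPS raised 13 and lowered 9 (43.1% called, against 42% of all genes). The 4 strongest upward were Slc7a11 (2.65), the cystine importer, Sqstm1 (1.83), the autophagy receptor p62, Niban1 (1.53) and Herpud1 (1.497), a component of endoplasmic reticulum-associated degradation. The 4 strongest downward were Eif2ak3 (-1.17), the kinase PERK, Dele1 (-1.14), which relays mitochondrial stress to Eif2ak1, Shmt1 (-0.91) and the glycine transporter Slc6a9 (-0.80). Against LPS, in the LPS+TM7nox libraries, 30 lay above the threshold upward (7.37% of all genes did) and 1, Shmt1 (-1.06), downward (6.4%), which is a description, since that comparison lies behind the choice of genes. The 30 divided into 5 of 16 sensing genes and 25 of 35 further targets. Slc6a9 (3.36), Soat2 (2.62), Sqstm1 (2.58) and Slc7a11 (2.04) had the largest values. Slc6a9 thus fell with LPS and had the largest upward value in LPS+TM7nox against LPS, while Slc7a11 and Sqstm1 were positive in both.

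In the anti-HuR RIP, LPS raised 20 members and lowered 2, where 23.5% of the 13614 genes tested rose and 21.2% fell, and the median change was 0.92 against 0.00 over all genes. All 6 feedback genes rose, as did 6 of 8 transcription factors, 3 of 10 enzymes and 1 of 6 transporters. Nupr1 (4.75 (SE 0.311, FDR 8.22e-09)), Atf3 (4.29 (SE 0.462, FDR 1.91e-06)) and Jdp2 (3.30 (SE 0.343, FDR 1.31e-06)) changed most. Called in the RIP and not in RNA were Eif2ak1 (0.53 (SE 0.168, FDR 0.0178)), Eif2s1 (0.74 (SE 0.180, FDR 0.0033)), Eif4ebp1 (0.76 (SE 0.205, FDR 0.00691)), Asns (1.33 (SE 0.263, FDR 0.000711)) and Gdf15 (1.53 (SE 0.398, FDR 0.00529)), a contrast between calls that is tested directly as the change of RIP over RNA. The calls of Eif2ak1, Eif2ak4 and Slc38a2 depended on single libraries. Eif2ak1 was not called without DMSO replicate 2 or LPS replicate 3 or 4, Eif2ak4 without LPS replicate 1, 2 or 3, and Slc38a2 without DMSO replicate 2 or 3 or LPS replicate 3 or 4 (FDR 0.0518 to 0.0976). In replicates 1 and 2 alone the calls of Eif2ak1, Eif4ebp1 (0.31, FDR 0.361), Mthfd2 and Slc38a2 were lost and that of Stc2 was gained, and in replicates 3 and 4 those of Eif2ak4, Eif2s1 and Gdf15 (0.65, FDR 0.323) were lost and those of Atf5, Phgdh, Psph, Slc1a4 and Stc2 gained. With no filter on low counts Eif2ak1, Eif2ak4 and Slc38a2 were lost and Atf5, Phgdh, Slc1a4 and Stc2 gained, and DESeq2 added Slc1a4. The change of Ddit4 was 2.04 with all libraries and 1.41 without LPS replicate 4. With the replicate block 24 members rose and 4 fell, while the calls over all genes went from 6090 to 8073; Atf5, Slc1a4, Phgdh and Shmt2 joined those that rose, and Impact and Stc2 those that fell. Of these, Atf5 was also called without DMSO replicate 4, Slc1a4 without LPS replicate 1 or DMSO replicate 2, Phgdh without LPS replicate 1, Impact without DMSO replicate 1 and Stc2 without DMSO replicate 1 or 2.

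For LPS+TM7nox against LPS in the RIP, 17 members lay above the threshold upward (8.64% of all genes) and 1 downward (7.61%). With the replicate block there were 27 and 3, while the calls over all genes went from 2212 to 4577. Nothing is read from these counts. Trib3 (2.78 (SE 0.340)), Stc2 (2.74 (SE 0.579)), Impact (2.67 (SE 0.222)), Slc1a4 (2.24 (SE 0.362)) and Ppp1r15a (2.10 (SE 0.365)) had the largest differences. The downward member was Slc1a5, with -0.67 (SE 0.199). Atf4 had 43.5, 58.5, 53.4 and 56.9 CPM in the DMSO RIP, 137, 169, 262 and 336 in LPS and 309, 263, 491 and 334 in LPS+TM7nox, so its LPS and LPS+TM7nox libraries overlapped there as they did not in total RNA. Against DMSO, 31 members were upward (25.1%) and 1 downward (23.1%).

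How much of each mRNA came down with HuR was measured as RIP over RNA, the log2 ratio of the RIP to the total RNA libraries of 1 treatment. Elavl1 mRNA itself, the message of the antibody's target, stood at 5.00 (SE 0.247) in DMSO. In DMSO 11 members were above their total RNA and 16 below, against 37% and 33.4% of the 14311 genes tested, so that 73% of the members were called and 70.4% of all genes. In LPS the counts were 11 above and 10 below (32.9% and 30.8%), and in LPS+TM7nox 10 above and 18 below (35.2% and 34.8%). Taken in both directions the share in DMSO was near that of all genes. The ratio in LPS+TM7nox divides by RNA libraries that served in choosing the members, so its counts and values are a description. The LPS RNA libraries were the other side of that comparison, so the ratio in LPS is not independent of the choice either. The ratio is relative to the typical gene. Mitochondrial RNA took 12.1 to 22.4% of the RNA libraries and 0.559 to 1.86% of the RIP libraries. Scaled by total counts, the median of all genes was -0.72 in DMSO, -1.06 in LPS and -1.07 in LPS+TM7nox. Whether the mitochondrial share bears on these medians was not tested. On that scaling 9 members were above and 22 below in DMSO, 8 and 22 in LPS, and 10 and 24 in LPS+TM7nox, where 10889, 10967 and 11227 of the 14311 genes were called in either direction.

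**Figure D3:**
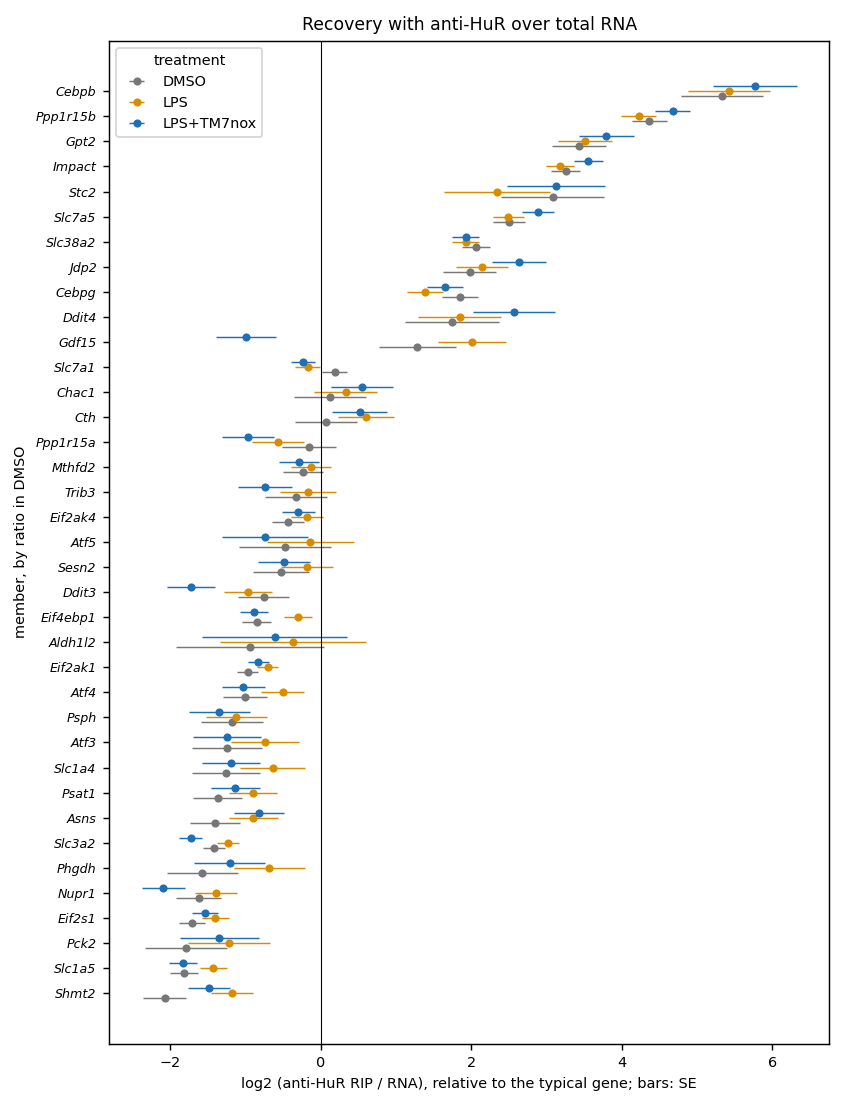
RIP over RNA (log2, with SE bars) of the measured members in the 3 treatments, in order of the DMSO value. Cebpb (5.33 in DMSO) and Ppp1r15b (4.36) lie at the top and Shmt2 (-2.07) at the bottom of the DMSO order, and Gdf15 lies above 0 in DMSO and LPS and below 0 in LPS+TM7nox.

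The 11 members above their total RNA in DMSO came from 6 roles. Cebpb (ENSMUSG00000056501, chromosome 2, 167530835 to 167532338) had 1045, 1028, 305 and 829 CPM in the DMSO RIP, 4362, 6665, 2412 and 5040 in LPS and 7058, 11270, 2320 and 8004 in LPS+TM7nox, against 8.36, 49.6 and 55.2 in the 3 IgG libraries. Every RIP library exceeded every RNA and IgG library of its treatment, and replicate 3 was the lowest RIP library of each treatment. The ratio was 5.33 (SE 0.548, FDR 4.31e-09) in DMSO, 5.42 in LPS and 5.77 in LPS+TM7nox. Ppp1r15b (ENSMUSG00000046062, chromosome 1, 133058881 to 133067539) had 1426, 1536, 1954 and 2048 CPM in the DMSO RIP, 3715, 5077, 4496 and 4082 in LPS and 3037, 4453, 2966 and 4352 in LPS+TM7nox, and 89.9, 287 and 149 in IgG. Its ratio was 4.36 (SE 0.233, FDR 2.11e-14) in DMSO. Its inducible counterpart Ppp1r15a stood at -0.16, -0.57 and -0.97 in the 3 treatments, so the paired subunits lay far apart in recovery.

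Impact had 122, 159.6, 196 and 189 CPM in the DMSO RIP, 93.2, 139.9, 164 and 115 in LPS and 789.9, 1054, 697 and 817 in LPS+TM7nox, and 23.5, 17.3 and 79.6 in IgG, a ratio to RNA of 3.25 (SE 0.192, FDR 1.45e-13) in DMSO. Gpt2 had 78.9, 85.2, 174 and 188 CPM, 51.5, 84.6, 191 and 147 and 271, 403, 363 and 526, and 15.8, 16.8 and 32.4 in IgG, a ratio of 3.43 (SE 0.360, FDR 6.32e-09). Stc2 had 4.54, 4.63, 13.4 and 24.1, 1.85, 2.57, 7.25 and 7.01 and 23.3, 14.3, 31.2 and 58.8 CPM in the RIP and 2.18, 0.831 and 4.64 in IgG, a ratio of 3.08 (SE 0.690, FDR 0.000329) that was 2.44 without DMSO RIP replicate 4. Gpt2 and Stc2 had more RNA in replicates 3 and 4 than in 1 and 2 of the DMSO RIP, as they did in total RNA. Slc7a5 (2.50), Slc38a2 (2.06), Jdp2 (1.98), Cebpg (1.85), Ddit4 (1.74) and Gdf15 (1.28) were the other 6 called above RNA in DMSO. The call of Ddit4 was lost without DMSO RIP replicate 4 or RNA replicate 2, and that of Gdf15 without RNA replicate 1 or 4 or RIP replicate 4 of DMSO.

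Of the 16 members below their total RNA in DMSO, 6 were enzymes, 4 transcription factors, 3 transporters, 2 sensing genes and 1 a feedback gene. Shmt2 had 38.9, 38.7, 63.0 and 48.4 CPM in the DMSO RIP, 37.6, 44.1, 98.4 and 86.2 in LPS and 73.2, 70.9, 146 and 91.2 in LPS+TM7nox, and 289.5, 266 and 399.9 in IgG. Every RIP library lay below its IgG counterpart, and the ratio to RNA was -2.07 (SE 0.285, FDR 5.55e-07) in DMSO. Slc1a5 had 49.8, 38.7, 34.4 and 34.4, 50.0, 38.0, 38.1 and 59.1 and 34.8, 31.8, 31.2 and 22.4 CPM in the RIP and 91.0, 88.1 and 67.0 in IgG, with a ratio of -1.81 (SE 0.185, FDR 3.68e-09). Eif2s1 had 39.8, 38.2, 44.4 and 33.5, 62.6, 63.0, 70.1 and 69.0 and 51.1, 51.4, 68.1 and 33.0 CPM and 131, 187 and 175 in IgG, with a ratio of -1.71 (SE 0.177, FDR 4.75e-09). In both the RIP libraries of a treatment were all below the IgG library of that treatment.

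Pck2 had 1.49, 2.55, 6.49 and 6.68, 0.925, 2.15, 8.64 and 7.65 and 9.64, 9.89, 26.5 and 16.6 CPM in the RIP of the 3 treatments and 28.5, 24.4 and 64.3 in IgG, a ratio of -1.79 (SE 0.550, FDR 0.0055) in DMSO. Nupr1 had 2.20, 3.11, 4.10 and 3.67, 51.0, 68.5, 114 and 123 and 50.9, 56.2, 87.5 and 49.6 CPM in the RIP and 7.58, 164 and 190.1 in IgG, a ratio of -1.62 (SE 0.298, FDR 3.26e-05). Nupr1 thus rose in the RIP with LPS while its ratio to RNA stayed below 0 in all 3 treatments. Also below RNA in DMSO were Eif2ak1 (-0.97), Atf4 (-1.01), Atf3 (-1.25), Ddit3 (-0.76), Eif4ebp1 (-0.85), Slc3a2 (-1.42), Slc1a4 (-1.26), Asns (-1.41), Phgdh (-1.57), Psat1 (-1.37) and Psph (-1.18). In DMSO the calls of Atf3, Ddit3 and Slc1a4 depended on single libraries: Atf3 and Slc1a4 were not called without RIP replicate 1, Slc1a4 also without RNA replicate 2, and Ddit3 without RIP replicate 1 or 3 or RNA replicate 2 or 4.

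In DMSO replicates 1 and 2 alone lost the calls of Ddit3, Gdf15, Psph and Slc1a4 and added Atf5, and replicates 3 and 4 lost Ddit3 and added Aldh1l2 and Eif2ak4. With no filter on low counts Gdf15 was lost and Aldh1l2, Atf5, Eif2ak4 and Sesn2 were added, and both DESeq2 and RLE size factors lost Ddit3 and added Slc7a1. In LPS replicates 1 and 2 alone lost Asns and added Pck2, Phgdh and Ppp1r15a, replicates 3 and 4 added Atf3, Chac1, Pck2, Phgdh and Slc1a4, and the fit with no filter added Atf3, Atf4, Cth, Pck2, Phgdh and Ppp1r15a.

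In LPS the calls of Ddit3, Asns, Psat1 and Psph were lost on leaving out single libraries: Ddit3 without RIP replicate 1 or 2 or RNA replicate 4, Asns and Psph without RIP replicate 1 or 2 or RNA replicate 3 or 4, and Psat1 without RIP replicate 1 or RNA replicate 3 or 4. With the replicate block, Atf4 (-0.501), Atf3 (-0.72), Ppp1r15a (-0.62), Phgdh (-0.74) and Pck2 (-1.33) were also called below RNA in LPS and Cth (0.59) above it. Of the members not called in LPS, leaving out single libraries brought calls for Atf4 (RNA replicate 1 or RIP replicate 4), Eif4ebp1 and Slc1a4 (RNA replicate 1), Ppp1r15a (RIP replicate 4), Pck2 (RNA replicate 1 or RIP replicate 3 or 4) and Cth (RIP replicate 1). In LPS+TM7nox, Atf3, Ppp1r15a, Asns, Phgdh, Pck2 and Gdf15 lay past the threshold below RNA, as a description, but not without single libraries: RIP replicate 1 or 2 or RNA replicate 3 for each of the 6, RNA replicate 4 for all but Pck2, and RIP replicate 4 for Asns. The block added Atf5 (-0.75), Trib3 (-0.74), Sesn2 (-0.51) and Slc7a1 (-0.25) below RNA, and Cth (0.54) above it, in LPS+TM7nox. In DMSO the block added Eif2ak4 (-0.40, also called without RNA replicate 1 or RIP replicate 3) and Atf5 (-0.61) below RNA.

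Of the 51 other pathway genes, 11 were above RNA and 31 below in DMSO (82.4% called, against 70.4% of all genes), and the 16 sensing genes had 3 above and 12 below. Tnfrsf10b (4.00), a death receptor, Atg12 (3.61), an autophagy conjugate, Eif2s3x (2.53), the gamma subunit of eIF2, and Soat2 (2.47), a cholesterol acyltransferase, were the highest. Tars1 (-1.97), Wars1 (-1.80), both tRNA synthetases, Eif2b3 (-1.88) and Eif2b1 (-1.87), subunits of the eIF2 exchange factor, were the lowest. Of the 10 measured member enzymes 6 were below RNA and 1, Gpt2, above.

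Whether LPS changed the recovery itself was tested as the difference of RIP over RNA between LPS and DMSO. That difference divides by the LPS RNA libraries, which also served in choosing the members. No member was called by edgeR, where 0.0419% of all genes were, and none by DESeq2, where 66 genes were. Of the 37 members, 28 had a positive difference and 9 a negative one, with a median of 0.23 against 0.02 over all genes. At an unadjusted p under 0.05 there were 2, Eif4ebp1 (0.55, FDR 0.678) and Shmt2 (0.89, FDR 0.634). The SE of this difference ran from 0.196 (Eif2ak1) to 1.38 (Aldh1l2). For LPS+TM7nox against LPS, where 0.00699% of all genes were past the threshold, the members' differences are given as a description only, since the RNA side of that comparison chose them. They ran from -3.01 (Gdf15) to 0.79 (Stc2), and 11 were positive and 26 negative.

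Gdf15 had the widest such difference of the members. Its RIP libraries read 0.372, 0.562, 0.455 and 0.854 CPM in DMSO, 2.54, 1.79, 0.725 and 1.39 in LPS and 3.06, 1.97, 3.55 and 3.06 in LPS+TM7nox, and its IgG libraries 0.156, 0.863 and 6.71. Its total RNA libraries, given above, all lay below the RIP libraries in DMSO and in LPS, whereas in LPS+TM7nox the RNA library exceeded the RIP library of the same number in all 4 replicates. The ratio of RIP to RNA was accordingly 1.28, 2.01 and -0.999. The IgG library of LPS+TM7nox, the shallowest of the 3, held more Gdf15 than any RIP library. Gdf15 had 1180 counts over all 27 libraries.

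**Figure D4:**
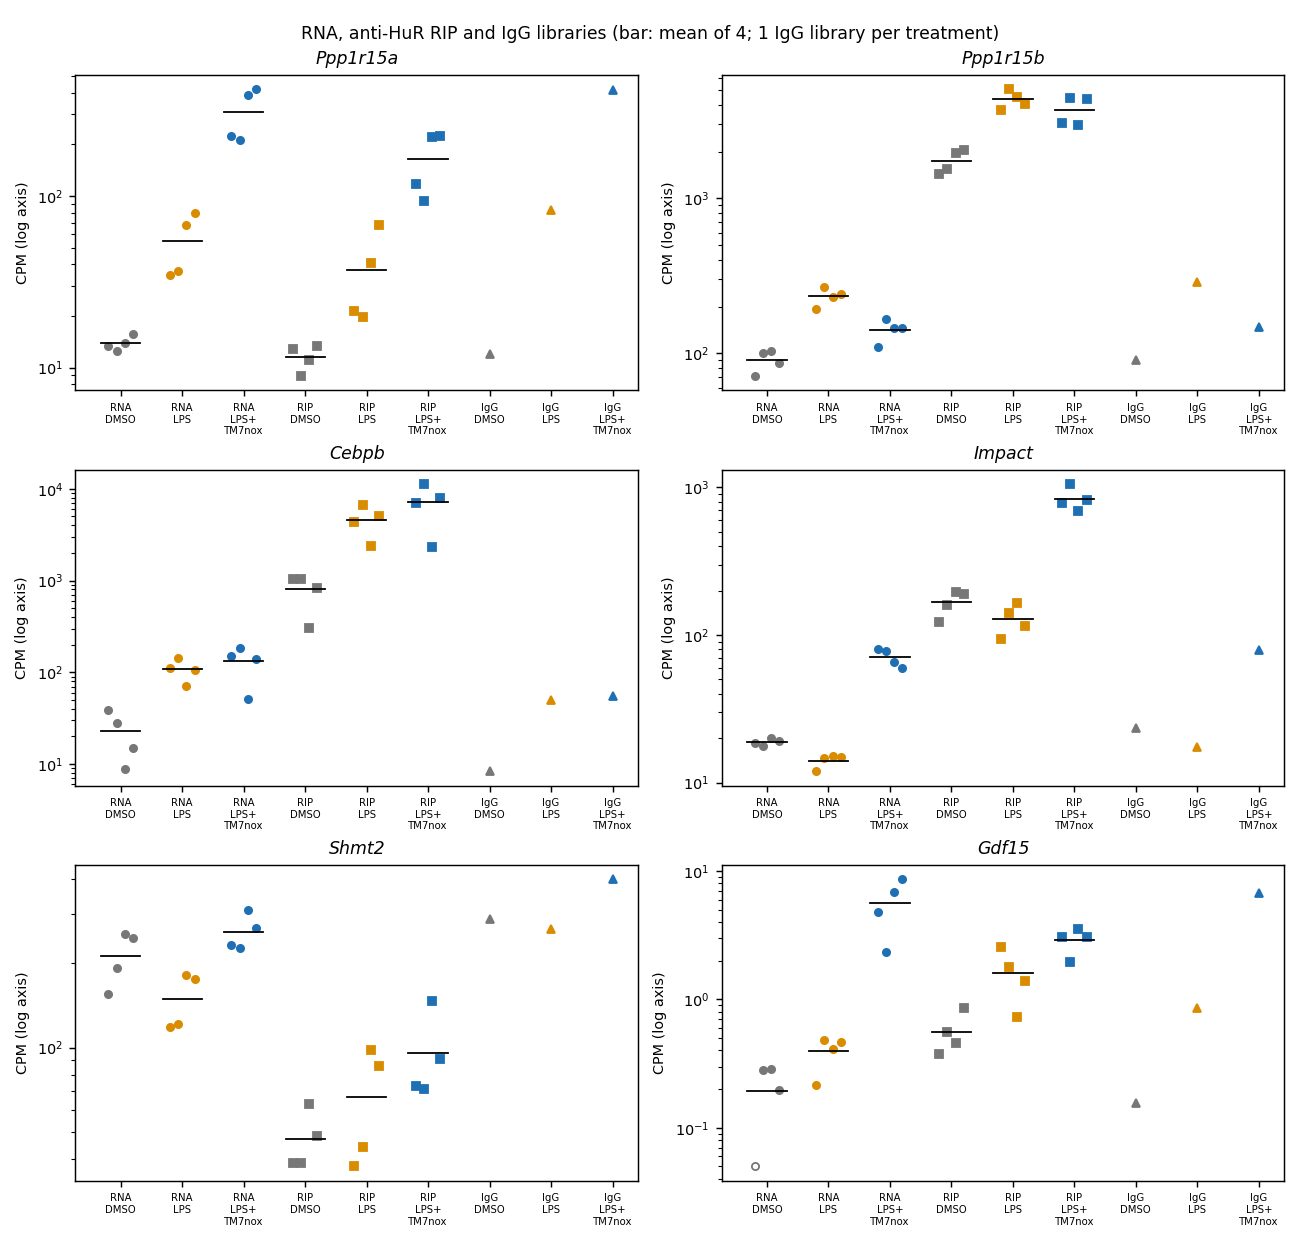
Level (CPM, log axis) of 6 members in total RNA, anti-HuR RIP and IgG by treatment, with 1 point per library and a bar at the mean of 4. An open symbol is a library with 0 counts, drawn at 0.05. In the RIP, Cebpb, Ppp1r15b and Impact lie above IgG in every treatment, Shmt2 lies below it, and Gdf15 lies above IgG in DMSO and below it in LPS+TM7nox.

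The RIP was compared with IgG over all treatments at once, since a treatment with a single IgG library cannot be tested by itself. All IgG libraries are replicate 3, so antibody and replicate cannot be told apart except within that replicate. By edgeR 10 members were above IgG and 19 below, against 33.8% and 34.2% of the 14973 genes tested. The 10 above were Cebpb (6.70 (SE 0.589, FDR 6.79e-09)), Ppp1r15b (4.24 (SE 0.263, FDR 8.34e-11)), Slc7a5, Gpt2, Jdp2, Impact, Stc2, Slc38a2, Cebpg and Ddit4, between 1.93 and 3.12 for the last 8. Within replicate 3 alone, 11 members were above IgG and 19 below (9025 genes called, against 10194 with all libraries), with Cth added above, Trib3 added below and Mthfd2 lost. DESeq2 lost Aldh1l2, and the fit with no filter on low counts lost Mthfd2 and added Atf5 below. The lowest were Pck2 (-2.41), Shmt2 (-2.26), Aldh1l2 (-1.84) and Asns (-1.81). Of the 10 enzymes measured, 8 were below IgG and Gpt2 alone was above it. The calls of Aldh1l2, Mthfd2, Ppp1r15a and Slc1a4 below IgG were each lost without the LPS IgG library, that of Aldh1l2 also without the DMSO one, and those of Ppp1r15a and Slc1a4 also without the LPS+TM7nox one. Trib3 was called below IgG without DMSO RIP replicate 2 or LPS RIP replicate 4, and Sesn2 without the latter. Gdf15 was not called against IgG in the pooled comparison (0.06 (SE 0.424, FDR 0.913)) but was called above it without the LPS+TM7nox IgG library (1.20, FDR 0.043).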

How the data were processed

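Gene counts were the deposited table of raw read counts per gene, 1 column per library, 27 libraries, which the authors made from SMART-Seq Stranded libraries per the labels' protocols. The submitters' processing notes name FastQC 0.11.9, STAR, HTSeq, DESeq2 and GRCm39, with no parameters; whether counting used strand is not given in the sources used here. Of the 40 rows with a member's symbol, 9 overlap another gene on the same strand and 28 on the other (GENCODE M39 annotation, GRCm39, which also gave coordinates and exon lengths), so reads in those overlaps are uncertain.

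Counts were analysed in R 4.3.3 with edgeR 4.0.16 (TMM scaling, filterByExpr with a minimum count of 10, glmQLFit and glmQLFTest, Benjamini-Hochberg over all genes tested). The 12 RNA libraries, the 12 RIP libraries and the 24 of both were each fitted in 1 model of group means, and the 12 RIP with the 3 IgG libraries in a model with treatment as covariate. Alternatives were RLE size factors, no filter, DESeq2 1.42.0, total count scaling, a replicate block, replicates 1 and 2 or 3 and 4 alone, replicate 3 alone for IgG, and leaving out each library. The fit of the RNA libraries was tried on counts simulated for LPS against DMSO, with no replicate effect. The other fits were not tried on simulated counts.

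Libraries with the same replicate number deviated together: of 60 pairs of groups and numbers the correlation of deviations over 8610 genes ran from 0.038 to 0.758, 59 were over 0.1, and 58 were highest with their own number. The pair under 0.1 joins groups that no comparison sets against each other. The pairing comes from the data, since the labels give a number and do not say what it marks.

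Libraries are listed one by one for members with an absolute log2 difference of at least 1 in RNA (LPS against DMSO or LPS+TM7nox against LPS) and a mean of at least 1 CPM, for Atf4, and, in RIP and IgG, for the 5 highest and 5 lowest in RIP over RNA in DMSO, plus Atf4 in the RIP and Gdf15 in both, which were added after their values were seen. Of the other pathway genes, up to 4 in each direction are named. The members, the lists and the tests were chosen with earlier results of these data known.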

Additional observations from a re-analysis of the deposited data

Results flagged for a closer look

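In each group of 4 libraries listed one by one, the highest and the lowest library was compared with the others by Dixon's ratio. The RIP libraries of Atf4 and Gdf15, which were added later, were left out of this check. Of 114 groups, 4 had a library apart, and chance alone marks about 1 in 20. Chac1 read 3.76 CPM in total RNA of DMSO replicate 2, where the other 3 libraries were between 0.636 and 0.965. Stc2 read 0.697 CPM in total RNA of LPS+TM7nox replicate 2, where the others were between 4.50 and 4.61. Impact read 11.9 CPM in total RNA of LPS replicate 1, where the others were between 14.6 and 15.0. Slc7a1 read 129.7 CPM in the same library, LPS replicate 1, where the others were between 160.8 and 166.5.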

How the results depend on the processing

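Over 35 settings, 186 of 193 counts of called members stayed within 1.5 times the count reported. The 7 that did not were these. For LPS against DMSO in RNA, replicates 1 and 2 alone gave 10 calls and replicates 3 and 4 gave 29, and the counts over all genes moved alike (1668 and 7349, against 5190). For LPS+TM7nox against LPS, replicates 1 and 2 gave 15 members in RNA (168 genes, against 1704), and the replicate block gave 30 in the RIP (4577 genes, against 2212). For the change of RIP over RNA in LPS+TM7nox against LPS, 1 member, Gdf15, was past the threshold with no filter on low counts, with DESeq2 and without LPS RIP replicate 3, so the counts on leaving out a library ran from 0 to 1. The cause of these moves was not tested. Of 4255 member values under alternatives of the tested comparisons and of RIP over RNA in LPS+TM7nox, 3989 stayed on their side of the threshold (158 of these changed sign with no call on either side), 125 lost a call, 138 gained one and 3 changed sign with a call: Slc7a1 RIP over RNA in DMSO (-0.59 with total count scaling, 0.18 with TMM), Slc7a1 against IgG (-1.03 with total count scaling, 0.01 with TMM) and Cth against IgG (0.57 in replicate 3 alone, -0.20 with all libraries); the first pair follow from the scaling, which moves all genes, and the cause of the last was not tested. The replicate block changed the calls named above and no other call in the tested comparisons. Depth limits Gdf15, Stc2, Ddit4 and Chac1 most, which had few counts in DMSO.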
